A study of Homo sapiens and Mus musculus with 18 samples.

Results

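The genes described here are 14 rows of the deposited count tables that belong to the developmental pluripotency associated (DPPA) family and to the oocyte's subcortical maternal complex. Gene identifiers were matched to GENCODE, and rows were taken by name. The names were chosen with earlier results of these data known. They were DPPA2, DPPA3, DPPA4, DPPA5, KHDC3L and OOEP, 6 of 44910 human rows, and Dppa2, Dppa3, Dppa4, Dppa5a, Khdc3, Ooep, Nlrp5 and Tdrd12, 8 of 29720 mouse rows. The study asked how expression changes from naïve and primed pluripotency to early and late gastruloids, which are aggregates of embryonic stem cells (ESCs) that model the body plan after gastrulation. Polyadenylated RNA was sequenced from 18 samples in 9 groups, each with 2 biological replicates.

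The human naïve group was H9 ESCs that had been chemically reset and kept in PXGL medium on irradiated mouse embryonic fibroblast feeders, which were thinned out by repeated passaging on Geltrex before collection. Primed ESCs of the H9 line and of RUES2-GLR, a reporter line, grew in StemFlex medium. Early and late RA-gastruloids came from the RUES2-GLR line after exposure to CHIR99021, which activates WNT signalling, and to retinoic acid (RA), and were collected at 24 h and 120 h. All 4 mouse groups came from E14Tg2a ESCs. These were naïve ESCs in 2i and LIF, primed epiblast-like cells (EpiLCs) grown for 2 days with Activin A, bFGF and knockout serum replacement, and gastruloids at days 3 (early) and 6 (late). Mouse gastruloids were started from naïve ESCs and not from EpiLCs, and they too were exposed to CHIR99021, in the day before the early collection. CHIR99021 was also part of the medium of the mouse naïve ESCs. The labels name no deletion or transgene of any of the 14 genes in any group.

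DPPA2 and DPPA4 are SAP domain proteins that bind chromatin as a pair and keep promoters of developmental and germline genes open to activation. DPPA3, also called STELLA, enters the early embryo with the oocyte cytoplasm and opposes DNA methylation by binding UHRF1, while DPPA5 is a small KH domain protein that binds RNA. KHDC3L (FILIA in mouse, gene Khdc3), OOEP (FLOPED) and NLRP5 (MATER) form the subcortical maternal complex of oocytes and cleavage embryos together with TLE6, and TDRD12 is a tudor domain protein of the piRNA pathway that silences transposons in germ cells.

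The human genes lie in 3 places. DPPA2 (chr3:109293788-109316517, minus strand, hg38) and DPPA4 (chr3:109326144-109337546, minus strand) are next to each other, 9.6 kb apart. DPPA5 (chr6:73353063-73354276, minus strand), KHDC3L (chr6:73362658-73364171, plus strand) and OOEP (chr6:73368555-73395133, minus strand) form a cluster on chromosome 6 with gaps of 8.4 kb and 4.4 kb, and DPPA3 stands alone (chr12:7711433-7717559, plus strand). In mouse (GRCm39) the pairs are kept: Dppa4 (chr16:48104096-48114600, plus strand) is 9.2 kb from Dppa2 (chr16:48124271-48140086, plus strand), and Dppa5a (chr9:78274334-78275459, minus strand) is 5.2 kb from Ooep (chr9:78283391-78286007, minus strand). Khdc3 (chr9:73009118-73011720, plus strand) is on the same mouse chromosome but apart from that pair, and Dppa3 (chr6:122603369-122607231, plus strand), Nlrp5 (chr7:23085314-23141347, plus strand) and Tdrd12 (chr7:35168523-35237170, minus strand) have no other member beside them. All 14 rows are protein-coding genes.

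The 250 bases upstream of the start site are shown for the chromosome 6 cluster, whose genes were measured almost wholly in naïve H9 ESCs, for DPPA3 and DPPA4, which share a family name and moved in opposite directions between naïve and primed ESCs, and for mouse Ooep, a counterpart of the cluster. Human windows are from RefSeq on GRCh38.p14 and the mouse window from GRCm39, all written 5′ to 3′ on the gene's strand with each CpG in capitals. The windows are chr6:73354277-73354526 for DPPA5, chr6:73362408-73362657 for KHDC3L, chr6:73369898-73370147 for OOEP (its RefSeq start site), chr12:7711183-7711432 for DPPA3, chr3:109337547-109337796 for DPPA4 and chr9:78286008-78286257 for Ooep.
DPPA5: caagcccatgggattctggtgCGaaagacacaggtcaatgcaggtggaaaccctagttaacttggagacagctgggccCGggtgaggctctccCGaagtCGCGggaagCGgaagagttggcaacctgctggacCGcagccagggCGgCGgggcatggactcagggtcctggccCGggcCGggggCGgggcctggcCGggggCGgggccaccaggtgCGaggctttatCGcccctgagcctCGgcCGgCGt
KHDC3L: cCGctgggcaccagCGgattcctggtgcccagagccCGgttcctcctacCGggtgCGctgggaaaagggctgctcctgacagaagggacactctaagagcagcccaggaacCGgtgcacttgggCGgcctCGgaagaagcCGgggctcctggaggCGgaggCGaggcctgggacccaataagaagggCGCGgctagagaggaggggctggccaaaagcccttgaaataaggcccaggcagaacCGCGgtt
OOEP: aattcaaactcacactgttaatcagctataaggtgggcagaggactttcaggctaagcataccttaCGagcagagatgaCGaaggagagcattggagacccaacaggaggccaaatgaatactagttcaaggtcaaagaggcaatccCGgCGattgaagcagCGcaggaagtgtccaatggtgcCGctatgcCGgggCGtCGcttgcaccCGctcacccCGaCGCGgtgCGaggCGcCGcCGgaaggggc
DPPA3: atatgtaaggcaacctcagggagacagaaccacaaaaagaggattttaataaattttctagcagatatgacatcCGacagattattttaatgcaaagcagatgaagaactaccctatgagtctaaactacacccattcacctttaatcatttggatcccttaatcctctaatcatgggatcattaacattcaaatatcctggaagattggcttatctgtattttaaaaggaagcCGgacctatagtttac
DPPA4: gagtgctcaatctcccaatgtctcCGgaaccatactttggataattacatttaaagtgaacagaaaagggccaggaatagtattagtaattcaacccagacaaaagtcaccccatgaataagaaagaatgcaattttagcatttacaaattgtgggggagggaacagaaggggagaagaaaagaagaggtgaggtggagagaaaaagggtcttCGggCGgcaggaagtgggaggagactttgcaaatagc
Ooep: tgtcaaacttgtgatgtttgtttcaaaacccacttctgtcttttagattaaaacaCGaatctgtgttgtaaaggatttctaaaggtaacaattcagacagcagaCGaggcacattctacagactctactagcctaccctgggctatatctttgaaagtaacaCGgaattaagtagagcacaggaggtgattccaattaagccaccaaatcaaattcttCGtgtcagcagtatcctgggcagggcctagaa
The cluster windows were above the median in CpGs, with 19 in DPPA5, 15 in KHDC3L and 17 in OOEP. The median was 11 over 35114 human windows of the same length. Fewer CpGs than in these 3 genes were held by 65.36%, 57.09% and 61.05% of human windows, so such counts are common. The windows of DPPA3, DPPA4 and DPPA2 held 2, 3 and 7. Mouse Ooep held 4, below the median of 8 over 21770 mouse windows, and Khdc3 held 0. A set of 5 short motifs was searched on both strands, and none of them contains another. The AP-2 palindrome GCCNNNGGC occurred in the DPPA5 window at 2 places, and 19.787% of human windows held it. The E2F motif GCGGGAA was also in the DPPA5 window (5.516% of human windows), the POU motif ATGCAAA in that of DPPA3 (3.941%), and the KLF motif GGGTGTG in that of DPPA2 (6.627%). The E-box CACGTG, present in 6.345% of human windows, was in no window of the 6 human genes. In mouse the E2F motif, found in 4.649% of windows, was in that of Nlrp5. These matches are descriptions of the letters in each window.

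Libraries held between 3681739 (primed RUES2-GLR ESCs, replicate 2) and 38771193 counts in human and between 6487157 and 20052505 in mouse. Levels are given as CPM, counts scaled to one library size after TMM, and levels of different genes are compared as TPM, which also divides by exon length. Lists of stage markers followed the labels: of 9 human naïve markers 8 fell and of 8 primed markers 8 rose from naïve to primed H9 ESCs, and in mouse 9 of 9 naïve markers fell and 6 of 7 primed markers rose from naïve ESCs to EpiLCs. The naïve H9 libraries had been near fibroblast feeders, and 8 fibroblast markers summed to 695 and 677 CPM in them against 303 and 313 in primed H9 ESCs. The same sum was 587 and 656 CPM in primed RUES2-GLR ESCs and 1128 and 1065 in early RA-gastruloids. None of the 8 was at 0 in naïve H9 ESCs, where COL3A1 had 181 and 172 CPM, and DCN and LUM were at 0 in primed H9 ESCs. Of the 8, 4 were called lower and 1 higher in primed than in naïve H9 ESCs. The higher one was PDGFRB, with 0.679 and 1.15 CPM in naïve and 32.6 and 31.5 in primed H9 ESCs. The part of residual cells in the human values was not tested. In bulk RNA, fewer cells of a type and less RNA per cell cannot be told apart.

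Some rows share sequence with other places in the genome, so their counts may be incomplete. A single other match of at least 98% identity covered 96.2% of the DPPA3 transcript, 57.8% of Dppa4 and 37.4% of Dppa2, and 2 identical matches covered 33.6% of Dppa5a. Annotated pseudogene copies of the human members collected 23 counts over all 10 libraries, and those of the mouse members 25 over 8. The exons of OOEP overlap those of DDX43 on the other strand over 306 bases, or 19.5% of OOEP's exon length. The default settings of featureCounts, which the study's methods give, ignore strand and assign no read that overlaps more than 1 gene, so reads in that stretch would be missing from both genes.

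A gene was called changed where its absolute log2 fold change exceeded 1 and its p from edgeR's quasi-likelihood test, adjusted by Benjamini-Hochberg across every gene tested, was under 0.05. From naïve to primed H9 ESCs all 6 human members passed, 5 lower and 1 higher. Of the 18300 human genes tested in this comparison, 47.8% were called, 22.3% lower and 25.5% higher. The median log2 fold change was −8.21 over the 6 members and 0.0048 over all genes tested.

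DPPA4 was the member that rose. It had 282 and 270 CPM in naïve H9 ESCs and 572 and 622 in primed H9 ESCs. In the RUES2-GLR line it had 440 and 355 CPM when primed, 128 and 128 in its early RA-gastruloids and 81.5 and 82.0 in the late ones. DPPA4 was thus the human member with at least 81.5 CPM in every library, highest in primed H9 and lowest in late RA-gastruloids, and no replicate of one group overlapped another group. Its rise from naïve to primed H9 ESCs was 1.12 on the log2 scale (SE 0.105, adjusted p = 4.99e-11). On the way from primed RUES2-GLR cells to early RA-gastruloids it fell 3.13-fold, a log2 fold change of −1.64 (SE 0.110, adjusted p = 4.84e-14). The difference between the primed lines (−0.58, adjusted p = 1.92e-05) and that from early to late RA-gastruloids (−0.65, adjusted p = 1.04e-05) passed the test but not the fold.

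DPPA2, its partner, moved the other way between the naïve and primed states. Its levels were 46.1 and 40.7 CPM in naïve and 7.55 and 7.34 in primed H9 ESCs. They were 2.62 and 2.87 CPM in primed RUES2-GLR ESCs, 0.769 and 0.706 in early RA-gastruloids and 0.339 and 0.306 in late ones. The groups did not overlap, and each was lower than the one before. DPPA2 fell 5.85-fold from naïve to primed H9 ESCs (log2 fold change −2.55, SE 0.144, adjusted p = 2.39e-16) and 3.60-fold from primed RUES2-GLR to early RA-gastruloid libraries (−1.85, SE 0.392, adjusted p = 0.000166). It was also 2.77-fold lower in the primed RUES2-GLR than in the primed H9 line (−1.47, SE 0.236, adjusted p = 3.14e-06). The last step, which rests on 15 early and 10 late counts, was not called (−1.15, SE 0.537, adjusted p = 0.0793). Per length, DPPA4 stood at 171 TPM and DPPA2 at 96.5 TPM in naïve H9 ESCs, and at 525 and 23.5 TPM in primed H9 ESCs, so the levels of this pair of genes parted in the primed state.

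DPPA3 was close to absent outside the naïve state. Naïve H9 ESCs had 438 and 411 CPM, primed H9 ESCs 0.559 and 0.858, and primed RUES2-GLR ESCs 1.06 and 0.319. In early and late RA-gastruloids it had 0 counts in all 4 libraries. It fell 542-fold from naïve to primed H9 ESCs (log2 fold change −9.08, SE 0.185, adjusted p = 4.93e-26) and did not differ detectably between the primed lines, which overlapped (0.22, adjusted p = 0.695). The step into early RA-gastruloids, from 14 counts to 0, was called (adjusted p = 9.03e-05) as at least 6.18-fold lower, counted against 3 counts over the group, but was not called without primed RUES2-GLR replicate 1 (adjusted p = 0.0955). Against naïve H9 ESCs, late RA-gastruloids were at least 4311-fold lower.

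DPPA5, KHDC3L and OOEP, the chromosome 6 neighbours, were high in naïve H9 ESCs and near 0 in the other groups. DPPA5 had 1398 and 1465 CPM there and 1.05 and 0.691 in primed H9 ESCs, and over the other 6 human libraries it collected 1 count. KHDC3L had 1040.2 and 1117 CPM in naïve H9 ESCs, 0 and 7 counts in primed H9 ESCs and 1 count in the other 6 libraries together. OOEP was lower, with 35.3 and 36.6 CPM in naïve H9 ESCs and 4 and 8 counts in primed H9 ESCs, and had at most 1 count in each other library. Both naïve libraries stood far above all 8 others for each of the 3 genes.

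The falls from naïve to primed H9 ESCs were 1795-fold for DPPA5 (log2 fold change −10.81, SE 0.188, adjusted p = 2.35e-27), 8198-fold for KHDC3L (−13.00, SE 0.229, adjusted p = 3.01e-27) and 162-fold for OOEP (−7.34, SE 0.261, adjusted p = 5.85e-21). The size for KHDC3L rests on the 7 counts of primed H9 replicate 2. Without that library its primed group was at 0 counts and the fitted log2 fold change was −16.77, and against 3 counts in the remaining library the fall was at least 5144-fold. KHDC3L thus had the largest fall among the 5 members that fell in this comparison, and DPPA2 the smallest. DPPA5 was lower in primed RUES2-GLR than in primed H9 ESCs, 1 count against 44, a ratio of 12.0 with an exact 95% counting interval of 2.04 to 485 (adjusted p = 0.00138). That call was lost without primed RUES2-GLR replicate 1 (log2 fold change −1.16 in place of −3.45, adjusted p = 0.519), and without replicate 2, which holds the 1 count, the fitted value was −6.75. OOEP, with a ratio of 1.64 (0.364 to 15.1, adjusted p = 0.579), and KHDC3L (adjusted p = 0.112) were not called between the primed lines. Naïve H9 ESCs exceeded late RA-gastruloids at least 14507-fold for DPPA5 and at least 364-fold for OOEP. For KHDC3L, which had 1 count in late RA-gastruloids, the bound against early RA-gastruloids was at least 7292-fold. These intervals and bounds cover counting error only.

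**Figure D1:**
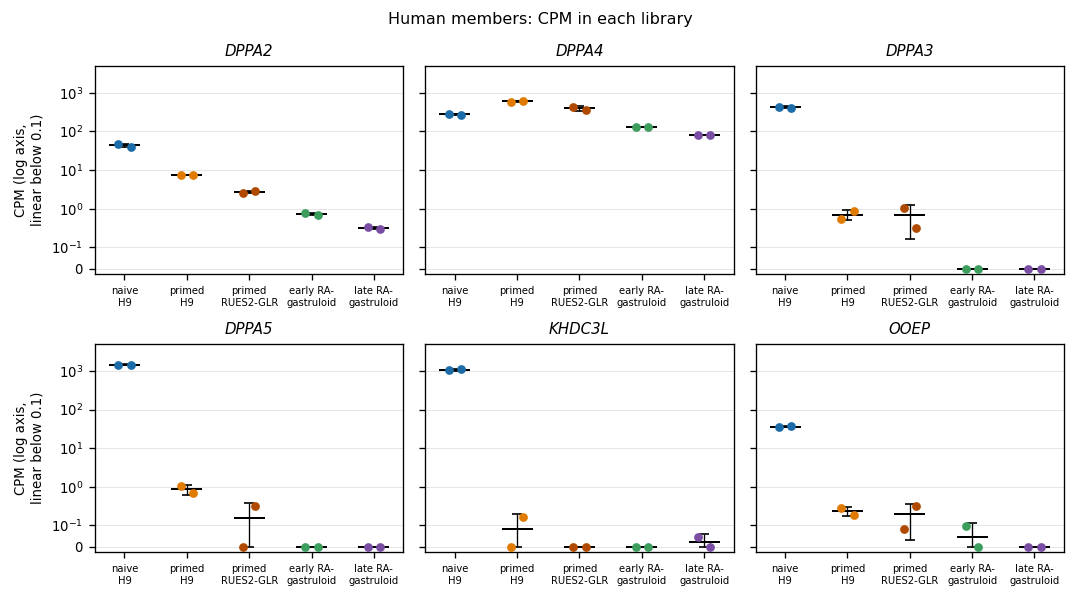
Levels of the 6 human members in each of the 10 human libraries, in CPM on an axis that is logarithmic above 0.1 and linear below it. Points are libraries, lines the mean of 2 replicates and bars ± SD. DPPA4 stays between 81.5 and 622 CPM in all groups, while DPPA3, DPPA5, KHDC3L and OOEP are high only in the 2 naïve H9 libraries.

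By TPM, naïve H9 ESCs held DPPA5 at 6670.0, KHDC3L at 3194, DPPA3 at 1185, DPPA4 at 171, DPPA2 at 96.5 and OOEP at 70.2. In every other human group DPPA4 was first in this order. More than 3 counts over the group were reached by 6 of 6 members in naïve and in primed H9 ESCs, by 3 in primed RUES2-GLR ESCs and by 2, DPPA2 and DPPA4, at both RA-gastruloid stages. Between the primed lines 2 members were called, both lower in RUES2-GLR, beside 29.3% of all genes (17.1% higher and 12.2% lower), and without primed RUES2-GLR replicate 1 the count was 1. Into early RA-gastruloids, from their parent RUES2-GLR cells, 3 of 6 were called, all lower, beside 29.6% of all genes (17.6% lower), and 2 without the same library. At the last human step none of the 6 was called by edgeR or by DESeq2 and 2 had an unadjusted p under 0.05, where 24.9% of all genes were called.

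Genes beside the members were read in the same libraries. DDX43, a helicase gene that overlaps OOEP, had 38.0 and 33.1 CPM in naïve H9 ESCs and no more than 5 counts in any other human library, and fell from naïve to primed H9 ESCs by 8.28 on the log2 scale (SE 0.301, adjusted p = 1.03e-20). KHDC1, a KH domain gene 42.7 kb beyond DPPA5, had a mean of 7.99 CPM in naïve and 5.53 in primed H9 ESCs and was not called (log2 fold change −0.48, adjusted p = 0.0188). CGAS, the cytosolic DNA sensor gene 18.4 kb beyond OOEP, fell from 6.15 to 1.00 CPM (−2.59, SE 0.286, adjusted p = 1.62e-09). The run from DPPA5 to DDX43 was therefore well expressed in naïve H9 ESCs and near 0 elsewhere, with flanking genes below 10 CPM on both sides. GDF3, a TGF-beta family ligand gene 15.7 kb from DPPA3, also fell from naïve to primed H9 ESCs, from 268 to 7.70 CPM, but unlike DPPA3 it stood at 40.9 CPM in primed RUES2-GLR ESCs.

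**Figure D2:**
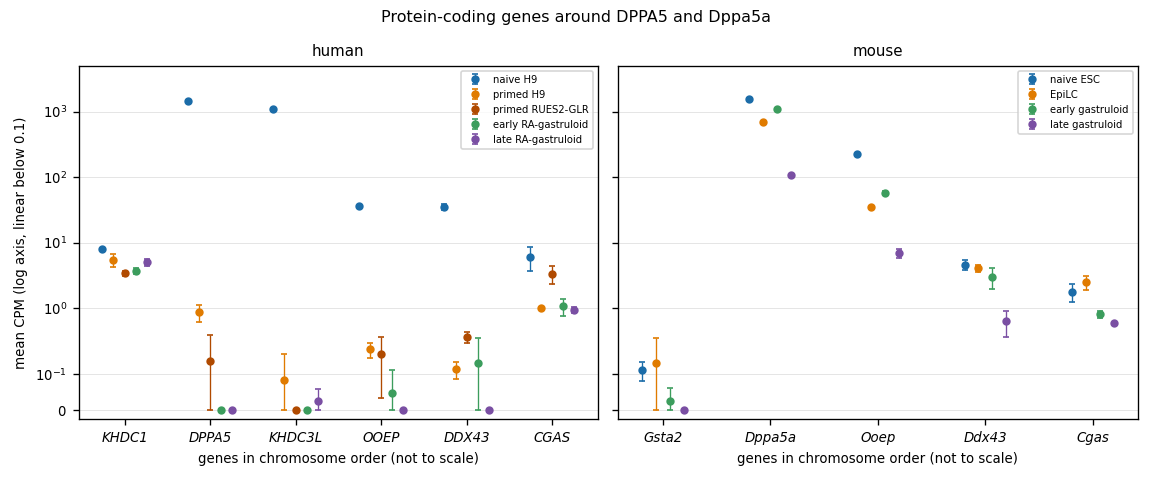
Mean CPM ± SD (2 replicates) of genes in chromosome order around human DPPA5, KHDC3L and OOEP and around mouse Dppa5a and Ooep, on a logarithmic axis, with the spacing not to scale. In human, DPPA5, KHDC3L, OOEP and DDX43 are high in naïve H9 ESCs while KHDC1 differs little between groups. In mouse, Dppa5a and Ooep are high in all groups relative to Gsta2, Ddx43 and Cgas.

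In mouse, 7 of the 8 members passed the filter on low counts, with Nlrp5 left out. From naïve ESCs to EpiLCs 4 of these were called, all lower, beside 29.8% of the 15003 genes tested (12.1% lower and 17.7% higher). The median log2 fold change was −1.20 over the 7 and 0.018 over all genes tested. At the last step, from early to late gastruloids, all 7 were called lower, with a median of −3.09, beside 39.2% of all genes (19.1% lower and 20.1% higher).

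Dppa2 and Dppa4 kept or exceeded their naïve levels in EpiLCs and in early gastruloids and fell in late gastruloids. Dppa2 had 58.1 and 44.9 CPM in naïve ESCs, 50.6 and 49.3 in EpiLCs, 49.2 and 52.4 in early and 7.94 and 6.26 in late gastruloids. Dppa4 had 42.7 and 41.3 CPM in naïve ESCs, 66.8 and 70.4 in EpiLCs, 75.5 and 73.6 in early and 6.65 and 5.96 in late gastruloids. The first 3 groups overlapped for Dppa2, and for Dppa4 naïve ESCs were below both EpiLCs and early gastruloids. In late compared with early gastruloids Dppa2 fell 7.03-fold (log2 fold change −2.81, SE 0.135, adjusted p = 1.14e-26) and Dppa4 11.7-fold (−3.55, SE 0.118, adjusted p = 2.85e-34). From naïve ESCs to EpiLCs Dppa4 passed the test but not the fold (0.72, adjusted p = 2.82e-11), and Dppa2 did neither (−0.025, adjusted p = 0.836).

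Dppa3 was lower in EpiLCs than in naïve ESCs and in the early gastruloids made from naïve ESCs. Its levels were 27.8 and 24.8 CPM in naïve ESCs, 8.13 and 7.24 in EpiLCs, 38.8 and 39.0 in early and 12.6 and 12.4 in late gastruloids. Early gastruloids were the highest group and EpiLCs the lowest, and no groups overlapped. The fall to EpiLCs was 3.45-fold (log2 fold change −1.79, SE 0.137, adjusted p = 1.70e-17), and early gastruloids were 5.16-fold above EpiLCs (2.37, SE 0.121, adjusted p = 9.97e-25). From early to late gastruloids Dppa3 fell 3.11-fold (−1.64, SE 0.119, adjusted p = 1.10e-18). Early gastruloids exceeded naïve ESCs by 0.58 on the log2 scale (adjusted p = 1.00e-06), within the fold threshold. The summed levels of 8 germ cell markers were also lowest in EpiLCs, but in another order otherwise. They were 516 and 508 CPM in naïve ESCs and 93.1 and 92.2 in EpiLCs. In early gastruloids they were 266 and 269 CPM and in late ones 362 and 365. Single genes weigh much in these sums, as Kit alone had 254 and 243 CPM in naïve ESCs. From early to late gastruloids 6 of the 8 markers were called lower, as Dppa3 was, and 2 higher (median log2 fold change −2.38). The part of germ cell-like cells in the Dppa3 values was not tested.

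Dppa5a was the most abundant member in every mouse group. It had 1541 and 1592 CPM in naïve ESCs, 693 and 675 in EpiLCs, 1074 and 1102 in early and 105 and 107 in late gastruloids. Ooep had 223 and 222 CPM in naïve ESCs, 33.6 and 35.5 in EpiLCs, 61.1 and 55.2 in early and 6.19 and 7.74 in late gastruloids. Both genes were lowest in late gastruloids and their groups did not overlap. From naïve ESCs to EpiLCs Dppa5a fell 2.29-fold (log2 fold change −1.20, SE 0.0471, adjusted p = 1.95e-30) and Ooep 6.38-fold (−2.67, SE 0.0750, adjusted p = 1.18e-37). Early gastruloids were above EpiLCs by 0.67 for Dppa5a (adjusted p = 5.91e-19) and by 0.75 for Ooep (adjusted p = 4.33e-12) on the log2 scale, neither past the fold. Late gastruloids were lower than early ones, as Dppa5a fell 10.3-fold (−3.36, SE 0.0542, adjusted p = 1.02e-49) and Ooep 8.49-fold (−3.09, SE 0.119, adjusted p = 3.48e-31).

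Khdc3, the mouse counterpart of KHDC3L, was sparse. It had 28 and 34 counts in naïve ESCs, 1 and 2 in EpiLCs, 28 and 16 in early and 3 and 4 in late gastruloids. Naïve ESCs and early gastruloids were the higher groups, and EpiLCs and late gastruloids held single counts. Naïve ESCs exceeded EpiLCs by a ratio of 24.8 with a counting interval of 8.10 to 123 (adjusted p = 1.81e-09), and early gastruloids exceeded EpiLCs by a ratio of 10.2 with an interval of 3.27 to 51.3 (adjusted p = 3.70e-05). The lower level in late than in early gastruloids was called (log2 fold change −1.58, SE 0.577, adjusted p = 0.0120) but lost without late gastruloid replicate 1 (adjusted p = 0.161) and with DESeq2 (adjusted p = 0.118). Nlrp5 had 1 count in 1 late gastruloid library and 0 in the other 7, and its human counterpart NLRP5 had 3 counts over 10 libraries. Transcripts of the MATER subunit were thus at or under 3 counts in each group of both species.

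Tdrd12 was highest in mouse naïve ESCs and lowest in late gastruloids. It had 197 and 197 CPM in naïve ESCs, 134 and 125 in EpiLCs, 101 and 99.1 in early and 11.4 and 10.9 in late gastruloids, with no overlap of groups. The fall from early to late gastruloids was 8.92-fold (log2 fold change −3.16, SE 0.0965, adjusted p = 4.34e-36), while that to EpiLCs passed the test but not the fold (−0.61, adjusted p = 6.01e-13). Human TDRD12 was low throughout, from a mean of 1.90 CPM in primed RUES2-GLR ESCs to 0.637 in early RA-gastruloids, a step that was called (−1.55, SE 0.519, adjusted p = 0.0117).

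**Figure D3:**
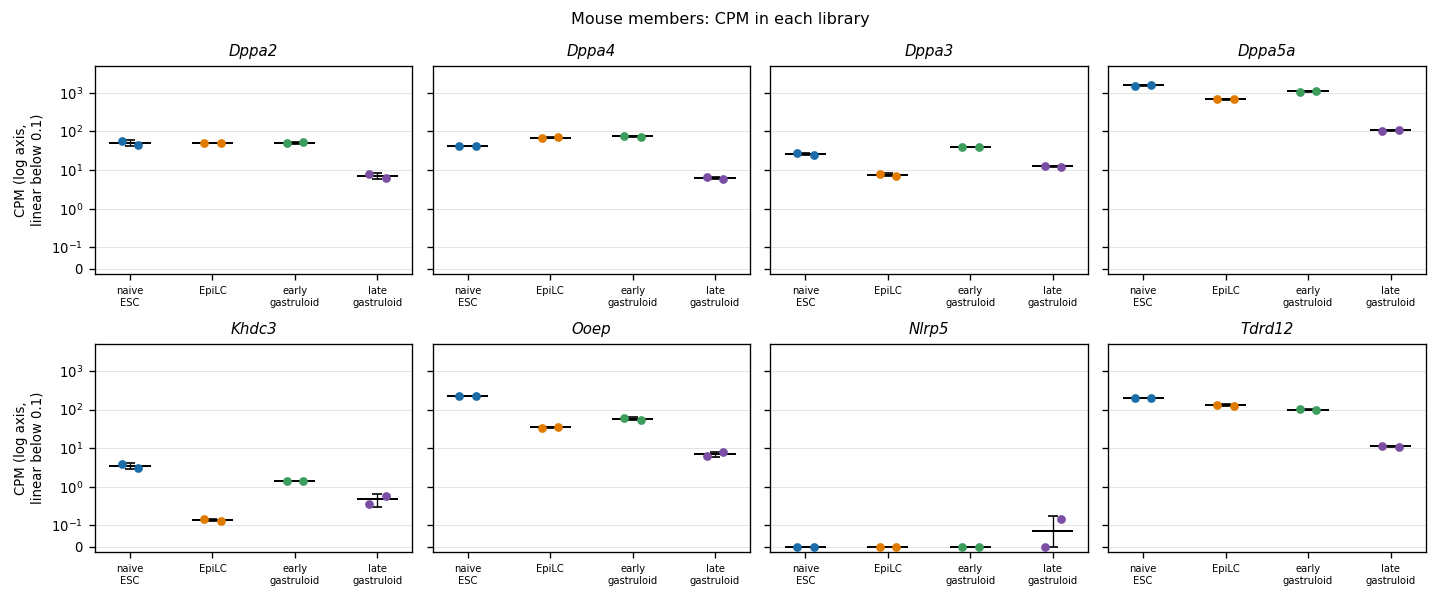
Levels of the 8 mouse members in each of the 8 mouse libraries, in CPM on an axis that is logarithmic above 0.1 and linear below it. Points are libraries, lines the mean of 2 replicates and bars ± SD. Late gastruloids are lowest for Dppa2, Dppa4, Dppa5a, Ooep and Tdrd12, and EpiLCs are lowest for Dppa3. For Khdc3, EpiLCs (3 counts) and late gastruloids (7 counts) are both low and their difference was not called. Nlrp5 stays at 0 or 1 count.

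From EpiLCs to early gastruloids 2 of the 7 tested mouse members were called, Dppa3 and Khdc3, both higher, beside 20.9% of all genes (11.7% higher). Directly from naïve ESCs, the cells from which the gastruloids were made, to early gastruloids 2 were called, both lower, beside 23% of all genes (6.81% lower). These were Ooep, 3.79-fold lower (log2 fold change −1.92, SE 0.0669, adjusted p = 1.16e-32), and Khdc3, 2.44-fold lower (−1.29, SE 0.347, adjusted p = 0.00112), and the call of Khdc3 was lost with DESeq2 (adjusted p = 0.0997). By TPM the mouse naïve order was Dppa5a at 8309, Ooep at 341, Tdrd12 at 149, Dppa3 at 96.8, Dppa4 at 83.0, Dppa2 at 69.2 and Khdc3 at 5.58. KHDC3L held the second place in human naïve ESCs and Khdc3 the last place among the mouse members counted in naïve ESCs, with Nlrp5 at 0.

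Steps of the same name were compared between the species as a difference of log2 fold changes, in 1 edgeR fit of 14008 matched genes over all 18 samples. Differences were called at an adjusted p under 0.05 and an absolute value above 1. Species, cell line, culture medium and day of collection change together, so that their parts cannot be told apart. From naïve to primed cells 5 of the 6 pairs differed, where 42.1% of all matched genes did. In all 5 the human log2 fold change was the lower one. DPPA5 changed by −10.89 in human and −1.16 in mouse (difference 9.72, SE 0.171, adjusted p = 7.75e-31), and DPPA3 by −9.15 and −1.75 (7.40, SE 0.242, adjusted p = 1.65e-23). KHDC3L changed by −13.06 and Khdc3 by −4.50 (8.56, SE 1.51, adjusted p = 8.07e-06), and OOEP by −7.41 and −2.64 (4.77, SE 0.290, adjusted p = 2.20e-16). The primed groups held 7 counts of KHDC3L and 3 of Khdc3. Both falls thus ended near 0, from naïve means of 1079 and 3.48 CPM, which limits the fall that Khdc3 could show. DPPA2 fell by 2.62 in human and stood at 0.0042 in mouse (2.63, SE 0.171, adjusted p = 8.91e-16). DPPA4 was higher in primed cells in both species, by 1.04 and 0.75, and this difference of −0.29 was not called (SE 0.134, adjusted p = 0.0543). The median difference over all matched genes was 0.18, which is small against these values.

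From primed cells to early gastruloids 3 of the 6 pairs differed, beside 32.6% of matched genes. This step is unlike in the species, as EpiLCs were not the parents of the mouse gastruloids while primed RUES2-GLR ESCs were those of the human ones. From their parents, the naïve ESCs, to mouse early gastruloids Dppa3 changed by 0.58 and was not called. DPPA4 fell by 1.74 in human and changed by 0.14 in mouse (difference 1.88, SE 0.131, adjusted p = 1.38e-14), and DPPA2 changed by −1.94 and 0.043 (1.98, SE 0.410, adjusted p = 9.59e-05). DPPA3 went from 14 counts to 0 in human and rose by 2.38 in mouse (fitted difference 9.17, SE 1.11, adjusted p = 1.34e-08), a fitted value that depends on the human counts of 0. DPPA5, KHDC3L and OOEP had at most 3 counts in both human groups, so no fold is given for them. From early to late gastruloids the larger falls were in mouse. Dppa4 changed by −3.68 and DPPA4 by −0.62 (difference −3.06, SE 0.172, adjusted p = 2.18e-17), and Dppa2 by −2.95 and DPPA2 by −1.14 (−1.81, SE 0.626, adjusted p = 0.0130). These were 2 of the 6 pairs, beside 35.4% of matched genes.

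**Figure D4:**
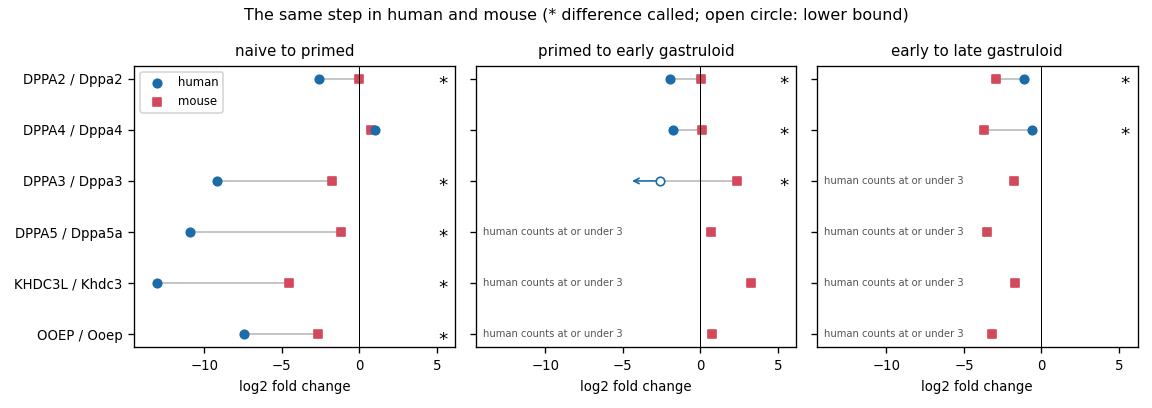
Log2 fold changes of the 6 matched pairs in human (circles) and mouse (squares) for 3 steps, as points with no error bars. Stars mark pairs whose difference between species was called, and the open circle with an arrow is a lower bound for human DPPA3. DPPA4 is the pair with human and mouse side by side at the first step, and no fold is drawn where both human groups had at most 3 counts.

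Other genes of the members' pathways were counted from fixed lists. Over all genes, 22.3% were called lower and 25.5% higher from naïve to primed H9 ESCs. From mouse naïve ESCs to EpiLCs these shares were 12.1% and 17.7%. From early to late gastruloids they were 19.1% and 20.1% in mouse and 13.2% and 11.8% in human. Of 10 human genes that work beside the maternal complex in oocytes, 7 were tested, and from naïve to primed H9 ESCs 4 fell and 1 rose (median log2 fold change −3.88). NLRP7, mutated in recurrent hydatidiform mole as KHDC3L is, had 4468 and 4102 CPM in naïve and 1.05 and 0.834 in primed H9 ESCs (−12.21, SE 0.188, adjusted p = 5.30e-30). NLRP2, its near relative, had 2860 and 2613 CPM and then 185 and 185 (−3.88, SE 0.114, adjusted p = 1.88e-23), so that unlike KHDC3L it stayed well above 0 in primed cells. NLRP4 went from 320 counts to 0 over the group. In mouse, 5 of the 10 list genes were tested and 3 rose and 2 fell from naïve ESCs to EpiLCs. Nlrp4f fell from 69.1 and 58.7 to 29.1 and 25.5 CPM (−1.24, SE 0.0979, adjusted p = 5.93e-17), Tle6, the transducin-like subunit of the complex, fell (−1.06, SE 0.278, adjusted p = 0.000780), and Nlrp14 rose (2.63, SE 0.385, adjusted p = 2.88e-08). From early to late mouse gastruloids 3 of the 5 fell and none rose.

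The piRNA pathway, to which Tdrd12 belongs, moved in opposite directions in the species at the first step. From naïve to primed H9 ESCs 11 of 15 tested genes fell and 1 rose, with a median log2 fold change of −2.13. From mouse naïve ESCs to EpiLCs 10 of 15 rose and 0 fell, with a median of 2.03. MAEL, the mouse and human maelstrom gene, showed both: human MAEL had 35.3 and 32.8 CPM in naïve and 0.0699 and 0.0953 in primed H9 ESCs, and mouse Mael had 2.37 and 4.49 CPM in naïve ESCs and 90.3 and 79.7 in EpiLCs. Tdrd12 did not move with these genes at that step, as it was lower in EpiLCs, short of the fold threshold (−0.61, adjusted p = 6.01e-13). Human TDRD12 had a mean of 1.21 CPM in naïve and 1.78 in primed H9 ESCs and was not called (adjusted p = 0.135). Of 18 matched piRNA genes, human TDRD12 and mouse Tdrd12 included, 14 had a called difference between species toward a higher mouse change and 1 toward a lower one, beside the 42.1% of all matched genes given above. In late gastruloids, relative to early ones, 12 of the 15 mouse genes fell, as Tdrd12 did, and Piwil2, which encodes a PIWI protein, fell by 3.78 on the log2 scale (SE 0.194, adjusted p = 3.08e-25). In human 4 of 15 fell and 2 rose at that step.

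Germline genes, a class silenced by promoter methylation in most somatic cells, also parted between the species. From naïve to primed H9 ESCs 7 of 11 tested fell and 3 rose (median −2.73), among them HORMAD1, a meiotic chromosome axis gene that went from 1278 counts to 0, and SYCP3, a synaptonemal complex gene that fell from 37.2 and 36.8 CPM to 0.0699 and 0.0715. DAZL, an RNA-binding germ cell gene, rose from 0 to 142 counts. In mouse 9 of 18 rose and 0 fell from naïve ESCs to EpiLCs (median 1.43). Of 17 matched germline genes, 11 had a called difference toward a higher mouse change and 4 toward a lower one, beside 42.1% of all matched genes. The mouse genes that rose included Taf7l, a germ cell TFIID subunit gene, at 1.81 and 2.15 CPM in naïve ESCs and 28.1 and 25.9 CPM in EpiLCs. At the last mouse step 16 of 18 fell and 0 rose (median −3.48). Hormad1 then went from 74.8 and 80.2 to 2.69 and 3.28 CPM.

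**Figure D5:**
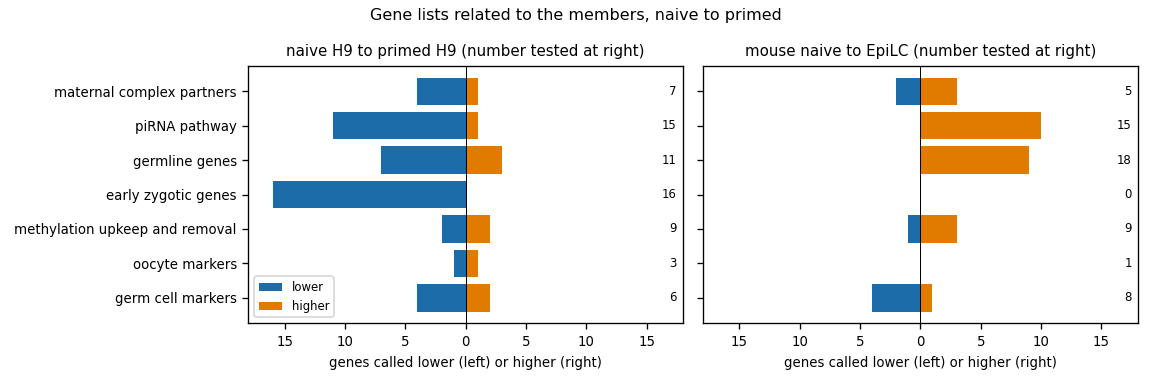
Number of genes called lower (left of 0) and higher (right of 0) in 7 gene lists from naïve to primed H9 ESCs and from mouse naïve ESCs to EpiLCs, with the number tested at the right. In the piRNA list 11 genes fell in human and 10 rose in mouse, and in the list of early zygotic genes 16 of 16 fell in human and none was tested in mouse.

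Early zygotic genes, expressed at the first activation of the embryonic genome, were counted because DPPA2 and DPPA4 act upstream of them in mouse cells. All 16 human genes of the list fell from naïve to primed H9 ESCs (median log2 fold change −8.92), and their summed level, 505 and 487 CPM in the naïve H9 libraries, did not pass 2.59 CPM in any other human library. ZSCAN4, the usual marker of this class, went from 1349 counts to 0, and KDM4E, a histone demethylase gene, from 1093 to 0. In mouse 13 of the 21 listed genes had a row and none was tested by edgeR or DESeq2 for want of counts, with a summed level of at most 1.51 CPM in any library. In human, DPPA2 fell at the same step as this list while DPPA4 rose, and in mouse Dppa2 (mean 51.5 CPM) and Dppa4 (mean 42.0 CPM) were expressed in naïve ESCs with the list near 0.

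Genes that write, keep or remove DNA methylation, the process that DPPA3 opposes, were mixed. Of 9 tested in human, 2 fell and 2 rose from naïve to primed H9 ESCs, a share near the 47.8% of all genes called there. DNMT3L, a cofactor of the new-methylation enzymes, went from 71895 counts to 1, TET2, which oxidises methylcytosine, fell by 3.41 on the log2 scale (SE 0.155, adjusted p = 1.02e-18), DNMT3B rose (1.38, SE 0.0979, adjusted p = 6.53e-14) and UHRF2 rose (2.04, SE 0.130, adjusted p = 5.43e-15). In mouse 3 of 9 rose and 1 fell from naïve ESCs to EpiLCs, with Dnmt3a from 48.6 and 42.4 to 995 and 1038 CPM and Tet2 lower (−3.03, SE 0.134). Dnmt3l rose in mouse (2.64, SE 0.0644) where human DNMT3L was lost.

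Markers of oocytes other than the maternal complex were near 0. Of 15 listed in human, 14 had a row and 3 were tested, and their summed level was at most 7.51 CPM in any human library and at most 10.1 CPM in any mouse library. In naïve H9 ESCs, where KHDC3L, OOEP and NLRP7 were high, the egg coat genes ZP2 and ZP4, the oocyte linker histone gene H1-8 and the importin gene KPNA7 were at 0 in both libraries. ZAR1 had 2.14 and 2.12 CPM there and was called lower in primed H9 ESCs, at 0.629 and 0.715 CPM. ZP3 was called higher in primed H9 ESCs, from 0.418 and 0.574 to 1.68 and 1.76 CPM. Of 8 mouse germ cell markers, 5 rose and 0 fell from EpiLCs to early gastruloids, beside 11.7% of all genes higher and 9.24% lower. Tfap2c went from 5.91 and 7.04 to 104 and 102 CPM, and Prdm14 was higher by 6.05 (SE 0.231) and Nanos3 by 4.50 (SE 0.490) on the log2 scale. At that step 9 of 9 mouse naïve markers were also called higher (median log2 fold change 4.47), and Prdm14 is on both lists. Of the mouse members, Dppa3 and Khdc3 were called in the same direction there.

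Likeness to the members was described by Pearson's r of log2 CPM over the 10 human or 8 mouse libraries, which share groups and depth, among 14587 human and 13618 mouse protein-coding genes. KHDC3L was most like TRIML1 (r = 0.999), PRAMEF2 (0.999) and TRIM43B (0.999), and 463 genes reached r = 0.95. DPPA5 was most like CHST2 (0.996), NLRP2 (0.995) and POLR1C (0.993), DPPA3 like ZNF114 (0.997), SGK1 (0.996) and ZBTB8OS (0.994), and OOEP like MRPL18 (0.992), NF2 (0.992) and ZNF808 (0.9902). DPPA4 had the fewest close genes of the human members, 70 at r = 0.95 or more, led by PIK3CD (0.997), DNMT3B (0.995) and BEND4 (0.993). DPPA2 was most like ZNF90 (0.997), ARHGEF16 (0.992) and VSIG10 (0.992). Among the human members r was 0.992 for DPPA5 with OOEP and 0.978 for DPPA5 with KHDC3L, against 0.681 for DPPA2 with DPPA4 and 0.137 for DPPA4 with KHDC3L.

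In mouse, Dppa4 and Dppa2 followed each other with r = 0.970, and Tdrd12 followed Dppa2 with r = 0.972 and Dppa5a with r = 0.970. Dppa3 stood apart, with r = 0.279 to Dppa4 and 0.845 to Khdc3. Genes with a like pattern were Gcnt2 (0.9997), Fbxo42 (0.9996) and Trim25 (0.9994) for Dppa5a, Cdca2 (0.998), Spp1 (0.996) and Pcolce2 (0.996) for Ooep, and Ak1 (0.994) and Exoc6b (0.992) for Dppa3. Khdc3 was close to Ism2 (0.994) and Fam81a (0.993), Dppa4 by Rpusd2 (0.999), Smagp (0.999) and Nup153 (0.998), Dppa2 by Zfp979 (0.997), L1td1 (0.996) and Lpin1 (0.995), and Tdrd12 by Fbxo27 (0.999), C1qbp (0.999) and Got1 (0.998). With libraries in 4 or 5 groups, such values describe group levels only.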

How the data were processed

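Polyadenylated RNA of 18 samples was sequenced as NEBNext Ultra II libraries. The authors demultiplexed reads with bcl2fastq 2.20, used Trimmomatic 0.39 for trimming, STAR for alignment to the GRCh38 (human) or GRCm39 (mouse) assembly, and featureCounts at default settings for counting. The deposited values are whole-number counts per gene, not normalized, 1 table per species. Samples were grouped by their titles. The 14 genes and the lists were chosen with earlier results of these data known.

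All genes of a species were tested in 1 fit with edgeR 4.0.16 (R 4.3.3, TMM, filterByExpr, glmQLFit and glmQLFTest), leaving 18300 human and 15003 mouse genes, with Benjamini-Hochberg adjustment over them. Replicates varied by 8.18% (human) and 4.30% (mouse) as biological coefficient of variation. On simulated counts the test recovered 200 of 200 changed genes in each species, all given a log2 fold change of 2. Recovery of smaller fold changes, or of genes with few counts taken alone, was not tested. Species differences were tested as an interaction in 1 fit over genes matched by symbol. Intervals are exact 95% counting intervals and bounds use 3 counts over the group. Log2 CPM for likeness had a prior count of 2. Alternatives were DESeq2 1.42.0, other scalings and filters, an adjusted p alone, a replicate block and leaving out each library. Named list genes are the 4 largest called changes per list and comparison reaching 1 CPM, and for likeness the 3 highest r, some of which are not reported here. Neighbours are the 2 nearest coding genes on each side. COL3A1, DCN and LUM were chosen after their values were seen.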

Additional observations from a re-analysis of the deposited data

Results flagged for a closer look

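These differences between human and mouse were called by the interaction test in edgeR over 14008 matched genes, as the log2 fold change in mouse minus that in human. At the step from naïve to primed cells they were 9.72 for DPPA5, 8.56 for KHDC3L and Khdc3, 7.40 for DPPA3, 4.77 for OOEP and 2.63 for DPPA2. At the step from primed cells to early gastruloids they were 9.17 for DPPA3, 1.98 for DPPA2 and 1.88 for DPPA4. From early to late gastruloids they were −3.06 for DPPA4 and −1.81 for DPPA2. The 9.17 is a fitted value that depends on a human change from 14 counts to 0, which bounds that fall only at 6.18-fold or more. The 8.56 rests on 7 human and 3 mouse counts in primed cells. At the second step Dppa3 was higher in mouse early gastruloids than in EpiLCs, which were not their parent cells. Mouse Dppa2 (adjusted p = 0.837) and Dppa4 (adjusted p = 0.163) did not differ detectably between EpiLCs and early gastruloids in edgeR's test. Cell line, medium and day of collection differ with the species and cannot be told apart from it.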

How the results depend on the processing

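Of the counts of members called, those that moved by more than 1.5 times were from early to late RA-gastruloids, 1 with an adjusted p alone, from EpiLCs to early mouse gastruloids, 5 with an adjusted p alone, from mouse naïve ESCs to early gastruloids, 1 with DESeq2 and 6 with an adjusted p alone, and between the primed human lines, 1 to 2 with 1 library left out at a time. Smaller moves were from 2 to 3 between the primed lines and from 4 to 6 from mouse naïve ESCs to EpiLCs with an adjusted p alone, from 3 to 2 into early RA-gastruloids without primed RUES2-GLR replicate 1 or with only the groups compared, and from 7 to 6 in late mouse gastruloids with DESeq2 or without late replicate 1. Of 561 values of single members under the alternatives, 545 kept their direction and side of the threshold, 5 fell below it and 11 passed it, and none changed sign past the threshold. Of 2112 counts of list genes, 180 moved by over 1.5 times. All 54 species differences kept theirs. Of 41 ratios of mean levels, 23 moved by more than the replicate spread with TPM in place of CPM, and none turned. Between the primed lines 3130 genes were higher and 2227 lower, and with DESeq2's size factors 3568 and 1627, and the median of all genes moved from −0.12 to near 0.

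By the paper's methods, both replicates of a stage came from the same batch, so their spread does not cover variation between batches. Between stages, samples are linked by replicate number only. Deviations of same-numbered samples correlated at −0.112 to 0.068 in human and −0.0483 to 0.00806 in mouse. With the replicate block, members called were 6, 2, 3 and 0 in the human comparisons and 4, 2, 2 and 7 in the mouse ones, as without it. Human members with few counts in primed cells are limited by depth, which was lowest in primed RUES2-GLR replicate 2.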
